A study of Mus musculus with 5 samples.

Results

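The stretch of mouse chromosome 7 around the β-major globin promoter is described here, as seen from that promoter by 4C. Chromosome 7 probes were sorted by the running number in their identifiers, and the members were the probe at rank 37873 and its 484 nearest neighbours, as many on each side, from rank 37631 to rank 38115. They were 0.840% of the 57765 probes of chromosome 7, on an array of 385000 probes. Rank 37873 was the centre of the highest running mean over the 5 arrays, so the members were chosen by the height of the signal, and levels around this centre are given as a description without a test. The authors' windows of 29 probes covered about 60 kb, which puts the outermost members at about 0.50 Mb. The position column was 0 for every probe, so all distances were rank distances, and kb values are estimates from this average spacing. The probes of the chromosome span 119.5 Mb at this spacing, which is shorter than the chromosome, so true distances may be larger. The probes of a separate tile for the mouse β-globin locus were left out.

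4C starts from cross-linked chromatin that is cut and religated, so that fragments close to a chosen viewpoint in the nucleus become joined to it. These fragments are amplified by inverse PCR from the viewpoint and hybridized to a microarray. The cells were cultured fetal liver cells of E14.5 mice (14.5 dpc), a stage at which the liver is the main site of red cell formation and the adult β-globin genes are highly transcribed. There were 2 untreated samples and 2 α-amanitin samples, each with the letters A and B, and 1 DRB sample, all on different arrays. α-amanitin binds RNA polymerase II and blocks initiation and elongation, and DRB inhibits the kinases that release the polymerase into elongation. Untreated and α-amanitin cells were cultured for 5 h, and DRB cells were treated for 3 h with 100 µM, so the times differ. The α-amanitin concentration was given in µg per ml in the methods and in mg per ml in the sample labels. The study describes its replicates as independent experiments, and whether A and B came from separate animals was not given. Samples with the letter A were labelled with Cy3, those with the letter B and DRB with Cy5, and an effect of the dye cannot be told apart from one of the letter. DRB had no replicate. Where 2 values are given for a condition, the first is array A and the second array B.

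In red cell precursors the β-globin locus folds so that its locus control region, a group of enhancers, lies near the gene that is transcribed. The locus is embedded in olfactory receptor genes, which are used in the nose and are not known for a role in red cells. RefSeq (GRCm38.p6) places 62 protein coding genes within 0.5 Mb of Hbb-bs, of which 48 are named Olfr (olfactory receptor) and 5 are named Hbb (β-like globin). This build differs from the one used for the array (NCBI m34), so no probe was assigned to a gene.

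The promoters of both adult β-globin genes of the assembly are shown because the bait, from which every signal was read, lay at an adult β-globin promoter. Mouse strains carry different pairs of adult β-globin genes. The strain of the assembly has Hbb-bs and Hbb-bt, and whether the bait matches either of them was not given. The sequences are from RefSeq, GRCm38.p6, minus strand, chr7:103827879-103828178 for Hbb-bs and chr7:103813874-103814173 for Hbb-bt, 5′ to 3′ with respect to the gene. Capitals mark motifs of globin promoters on either strand, namely the CACCC box, the CCAAT box and the TATA-like ATATAA.
Hbb-bs: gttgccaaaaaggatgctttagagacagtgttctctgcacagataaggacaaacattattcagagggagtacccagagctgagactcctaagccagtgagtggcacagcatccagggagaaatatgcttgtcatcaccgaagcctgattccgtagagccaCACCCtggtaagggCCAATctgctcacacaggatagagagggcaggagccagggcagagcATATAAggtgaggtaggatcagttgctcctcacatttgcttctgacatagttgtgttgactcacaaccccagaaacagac
Hbb-bt: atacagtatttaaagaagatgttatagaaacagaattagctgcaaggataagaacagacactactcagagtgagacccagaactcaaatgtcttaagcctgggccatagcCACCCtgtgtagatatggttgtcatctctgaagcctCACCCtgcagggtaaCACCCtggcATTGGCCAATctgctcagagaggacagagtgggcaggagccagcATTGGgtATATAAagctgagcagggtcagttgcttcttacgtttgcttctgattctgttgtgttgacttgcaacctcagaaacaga

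Over all 32851 promoters of the same length and both strands, CACCC was found in 57.5%, the box CCAAT in 37.4% and ATATAA in 9.82%. The 4C procedure first cuts with HindIII at AAGCTT and then with NlaIII at CATG, and neither sequence occurs in these windows of either gene. Over all promoters the shares were 7.45% for HindIII and 61.1% for NlaIII. The matches are a description of the letters, and the 4C signal was not related to them.

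The signal of the members was far above that of the chromosome on every array. Their median signal was 15030 and 14646 in untreated cells, 1988 and 13182 with α-amanitin and 9477 with DRB. The chromosome 7 medians ran from 474 (untreated B) to 702 (α-amanitin A). α-amanitin A thus had the lowest member median and the highest chromosome median. Single members spread over almost the whole scale of the scanner, from 150 to 65535 in untreated B, where 10% were at or below 795 and 10% at or above 63583.

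A plateau of near-maximal signal surrounded the viewpoint on all 5 arrays. The mean of the 29 probes centred on rank 37873 was 60097 and 61947 in untreated cells, 62828 and 62204 with α-amanitin and 61945 with DRB. All of these means were close to the highest value a 16-bit scanner can record, 65535. The highest running mean of 29 probes was centred 8 probes below the chosen rank in untreated A, on it in untreated B and α-amanitin B, 3 probes below it in α-amanitin A and 6 probes above it in DRB.

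The centre probe itself had a signal of 62248 and 65535 in untreated cells, 65535 and 46195 with α-amanitin and 64274 with DRB. It was at the ceiling on 2 arrays and lowest in α-amanitin B. Over the 5 probes on each side, the lowest value on any array was 42103, in untreated A at 5 probes below the centre. The number of members at the ceiling was 12 and 31 in untreated cells, 42 and 29 with α-amanitin and 29 with DRB. In all, 74 members were at the ceiling on at least 1 array, of which 26 were in the centre step, and none was there on all 5. The ceiling bounds every comparison in the plateau from above.

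**Figure D1:**
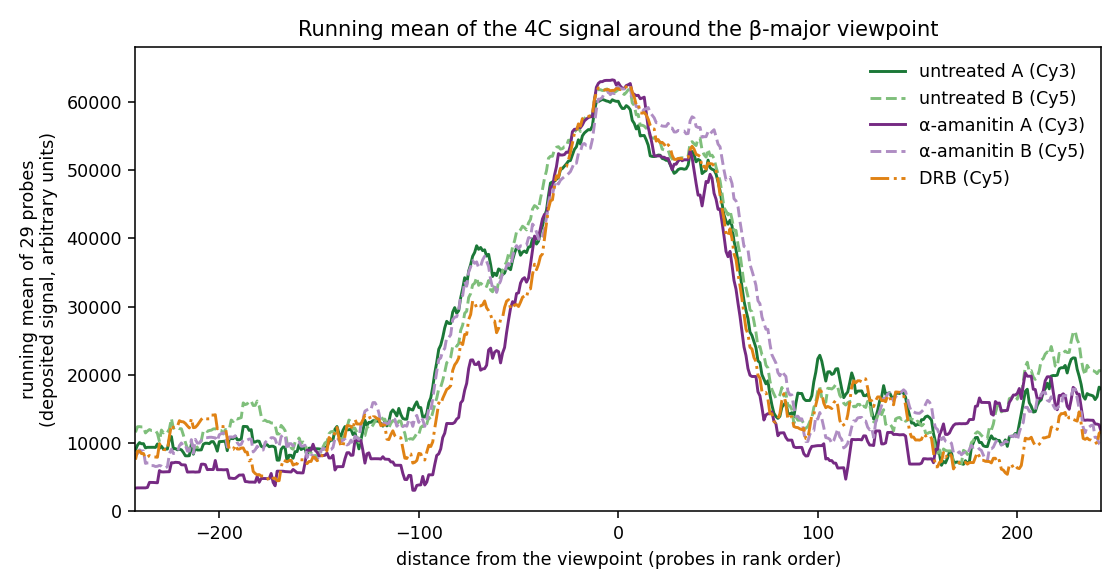
Running mean of 29 probes of the deposited signal (vertical axis, arbitrary units, not normalized) against the distance from the viewpoint in probes (horizontal axis, 0 = rank 37873) for the 5 arrays. All 5 curves peak between 60366 and 63239 at the centre, fall on both sides and rise again towards the right edge. α-amanitin A is the lowest curve from -129 to -55 on the horizontal axis, but at -156 it is the highest.

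The plateau ended on both sides within about 80 probes. The running mean stayed at or above the level of 50% of its peak from 79 probes below to 63 probes above the viewpoint in untreated A, a width of 143 probes or about 296 kb. The width was 141 probes in untreated B and 149 in α-amanitin B. It was 111 probes in α-amanitin A and 110 in DRB, about 230 and 228 kb. The narrower pair was narrower on the lower-rank side, where the limit was 51 (α-amanitin A) and 48 probes (DRB) from the centre, against 75 to 79 in the other arrays. On the higher-rank side the limit lay between 59 and 69 probes in all 5 arrays. The width was not tested, since the members and the peak were chosen on this signal.

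Signal fell steeply between 44 and 101 probes from the viewpoint. In steps of 29 probes counted outwards from the centre step, the mean signal of step 2 on the higher-rank side (44 to 72 probes) was 39592 and 41135 in untreated cells, 33837 and 45807 with α-amanitin and 37729 with DRB. In step 3 of the same side (73 to 101 probes) it was 14451 and 14918 in untreated cells, 10436 and 17061 with α-amanitin and 13857 with DRB. α-amanitin A was the lowest and α-amanitin B the highest of the 5 arrays in both steps, so the treated pair enclosed the untreated arrays.

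On the lower-rank side the step means still fell from step 3 to step 4 on every array. The mean of step 3 there was 26890 and 20391 in untreated cells, 11451 and 23870 with α-amanitin and 17214 with DRB. In step 4 it was 12516 and 12503 in untreated cells, 7626 and 12796 with α-amanitin and 10577 with DRB. α-amanitin A was again the lowest, and α-amanitin B lay within or beside the range of the untreated arrays.

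Beyond step 3 the running mean did not go back to the chromosome level. The lowest running mean anywhere among the members was 6748 and 6611 in untreated cells, 3081 and 6351 with α-amanitin and 4453 with DRB. The median running mean of chromosome 7 was between 943 and 1488. By medians of single probes α-amanitin A did reach the chromosome level. It had 708 and 675 in steps 4 and 5 of the lower-rank side, beside a chromosome median of 702. All windows centred on members were above the 95th percentile of the chromosome's running means in both untreated arrays and in α-amanitin B. In DRB 472 windows were (97.3%), and in α-amanitin A 440 (90.7%). Followed outwards from the peak without a gap, this elevated stretch had a width of 542 and 536 probes in untreated cells, 209 and 566 with α-amanitin and 364 with DRB. Both untreated arrays and α-amanitin B were thus elevated beyond the rank limits, and the other arrays were interrupted inside them.

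The slope of log2 signal on log2 distance, taken over quantile normalized single probes, was -0.98 and -0.86 in untreated cells, -1.14 and -0.91 with α-amanitin and -1.12 with DRB. A slope of -1 means a 2-fold fall for each doubling of the distance. The mean slope of the untreated arrays was -0.92. α-amanitin A and DRB were steeper than both untreated arrays, and α-amanitin B lay between them. The fall was steeper on the lower-rank side than on the higher-rank side on every array, by the most in α-amanitin A (-1.33 against -0.95) and by the least in DRB (-1.14 against -1.09).

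The sides of the viewpoint differed in level. The mean log2 signal of the lower-rank members minus that of the higher-rank members was -0.43 and -0.26 in untreated cells, -0.68 and -0.41 with α-amanitin and -0.22 with DRB. All 5 arrays had the higher level on the higher-rank side. From step 6 outwards the mean log2 signal was 11.34 on the lower-rank and 12.45 on the higher-rank side in untreated A, and 11.98 and 12.70 in untreated B. In DRB these values were 10.84 and 11.22.

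On the higher-rank side the mean of step 4 (102 to 130 probes) was above that of step 3 in untreated cells (18846 and 16089) and DRB (16022). With α-amanitin it was below that of step 3, with 8496 and 11102. Further out, a rise of signal lay at the outer edge of this side. In untreated cells the mean of step 6 there (160 to 188 probes) was 7421 and 8765, that of step 7 was 15894 and 19003, and that of step 8 (from 218 probes, about 450 kb, outwards) was 19773 and 24708. With α-amanitin the same steps had 12840 and 8615, 18536 and 13022, and 17455 and 16708. With DRB they had 7185, 8556 and 12581, the lowest of the 5 arrays in each of the 3 steps. By these means step 8 was thus above step 6 in every sample, and the level was lowest with DRB. By medians α-amanitin B had 5933 in step 6 and 5058 in step 8, and the other arrays were higher in step 8. The lowest median of step 8 was in α-amanitin A, with 4525, against 5313 with DRB. The brightest member from step 3 outwards in untreated cells was in this rise, 217 probes above the viewpoint, with 62178 and 65535 in untreated cells, 59120 and 16244 with α-amanitin and 53672 with DRB.

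The rise ended near the rank limit of the members. The last 29 members on the higher-rank side had a mean of 22490 and 26207 in untreated cells, 18166 and 17909 with α-amanitin and 13470 with DRB. The first 29 probes outside had 9604 and 9649, 4238 and 4924, and 8567. On the lower-rank side the last 29 inside had 9118 and 11497, 5770 and 6351, and 9060, and the first 29 outside had 7544 and 8861, 986 and 7826, and 4370. The rank limit thus lay in signal above the chromosome level on both sides, apart from α-amanitin A on the lower-rank side.

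**Figure D2:**
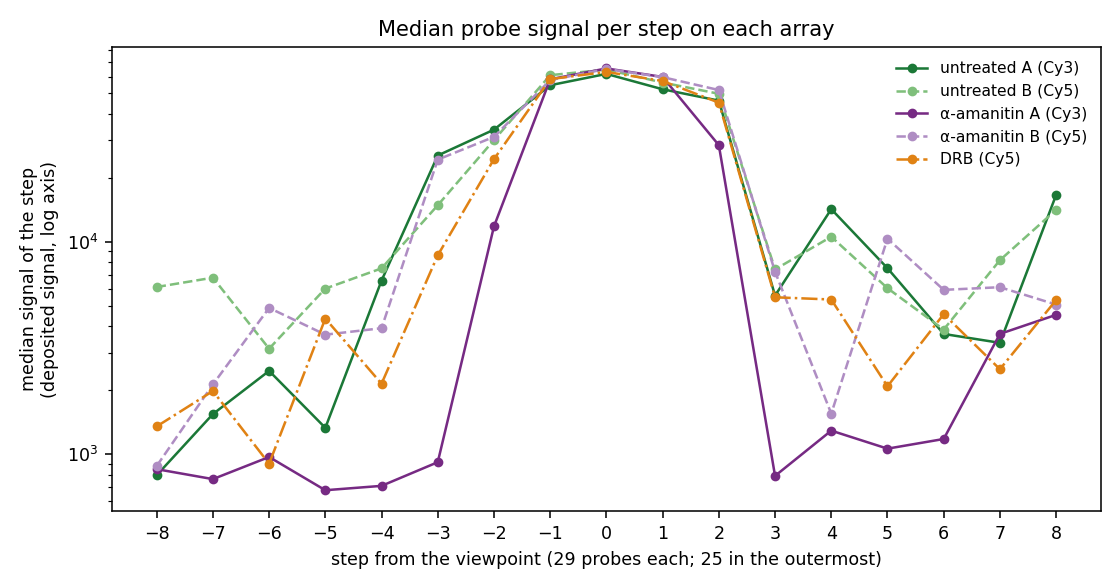
Median deposited signal of the probes in each step (vertical axis, log scale, arbitrary units) against the step from the viewpoint (horizontal axis, 29 probes per step and 25 in the outermost ones), 1 line per array. In steps 3 to 6 of both sides the medians of α-amanitin A stay between 675 and 1288, whereas those of the other arrays scatter between 900 and 25483, and in step 8 at the right edge α-amanitin A reaches 4525.

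Medians of the same steps gave another picture of α-amanitin A than means. In step 3 on the lower-rank side the median probe had 25483 and 14861 in untreated cells, 24374 in α-amanitin B and 8630 with DRB, but 915 in α-amanitin A. On the higher-rank side step 3 had medians of 5573 and 7406 in untreated cells, 7221 in α-amanitin B and 5474 with DRB, but 788 in α-amanitin A. At least 50% of the probes of these steps were thus near the chromosome median of 702 on that array, while a minority stayed bright and held up the mean.

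Brightness per probe was therefore counted. A probe was called bright when its deposited signal was above the 95th percentile of chromosome 7 on the same array, a level of 8409 and 9421 in untreated cells, 2578 and 7810 with α-amanitin and 9695 with DRB. By this definition 5% of the chromosome is bright on each array. Among the members 284 and 283 were bright in untreated cells, 233 and 279 with α-amanitin and 241 with DRB. Bright in both untreated arrays were 240 members (49.5%), against 2.28% of chromosome 7. Bright in both α-amanitin arrays were 179 (36.9%), against 1.39%. Since the members were chosen for high signal, nothing is read from the distance to these backgrounds. The level in α-amanitin A was the lowest of the 5, so that this array had the fewest bright members under the most permissive level.

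Of the members 139 were bright on all 5 arrays (28.7%, against 0.751% of the chromosome) and 100 on none (20.6%, against 86.9%). The next most frequent pattern was bright on every array but α-amanitin A, with 40 members (0.476% of the chromosome). Bright on every array but DRB were 10 members (0.071% of the chromosome), but α-amanitin B 6 (0.234%), but untreated B 6 (0.118%) and but untreated A 7 (0.126%). Bright in both untreated arrays and in neither α-amanitin array were 18 members (0.388% of the chromosome), and the reverse pattern was seen for 8 (0.209%).

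All 29 probes of the centre step were bright on all 5 arrays, and so were 81 of the 116 in steps 1 and 2 of both sides. In steps 3 to 5 this fell to 18 of 174, and in steps 6 to 8 to 11 of 166. Probes that were bright on no array were nearly absent near the viewpoint, with 1 within steps 0 to 2, against 48 in steps 3 to 5 and 51 in steps 6 to 8. The 1 dark probe in the plateau was 27 probes below the viewpoint (identifier MMUS3C0000056016). Its signal was 1433 and 432 in untreated cells, 495 and 391 with α-amanitin and 1763 with DRB, between 0.704 and 3.44 times the chromosome median of each array. Each probe reads 1 end of a HindIII fragment, and the files do not say why a given end gave no signal.

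**Figure D3:**
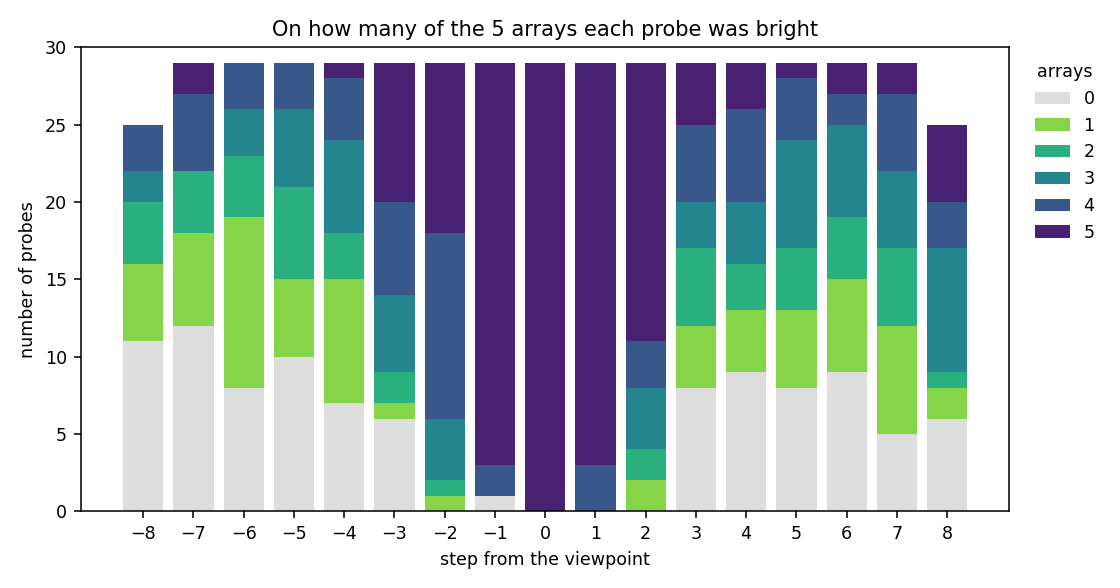
Number of members (vertical axis) in each step from the viewpoint (horizontal axis) that were bright on 0 to 5 of the arrays (colours). The centre step is bright on all arrays in full (29 of 29), and from step 3 outwards probes bright on all 5 arrays are at most 9 of 29 in any step.

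Bright and dark probes lay interspersed in the outer steps. Of the 278 neighbours of members bright on all arrays, 74.1% were also bright on all arrays, many of them within the plateau. Of the 199 neighbours of members bright on none, 33.2% were bright on none and 5.03% on all. The log2 signals of adjacent members had a correlation between 0.37 (untreated B) and 0.50 (α-amanitin A) across 484 neighbouring pairs, and at a distance of 10 probes it was still 0.33 to 0.45. Over all of chromosome 7 the correlation of adjacent probes was 0.17 to 0.27. These correlations are across probes of 1 library and carry no p-value. Place on the array did not go with signal, with correlations between -0.029 and 0.054 for either coordinate.

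The members that were bright in both untreated arrays were then followed into the treated samples. The signal of the treated arrays had also helped to place the centre of the members. High shares of bright members on these arrays were therefore partly fixed by that choice. Of these 240 members 210 (87.5%) were bright in α-amanitin B, 192 (80%) in DRB and 161 (67.1%) in α-amanitin A. At least 1 α-amanitin array was bright for 222 (92.5%), and both were for 149 (62.1%). The 240 were picked by the untreated arrays, so a lower share on other arrays was partly set by this choice. In reverse, of the 179 members bright in both α-amanitin arrays 149 (83.2%) were bright in both untreated arrays. Of the 1079 probes bright in both untreated arrays on the rest of chromosome 7, 66.5% were bright in α-amanitin B, 67.7% in DRB and 44.6% in α-amanitin A. For comparison, of the 284 members bright in untreated A 84.5% were bright in untreated B. α-amanitin B therefore shared as many bright members with untreated A (240, 84.5% of the 284) as untreated B did, and α-amanitin A shared fewer (177, 62.3%).

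Untreated B served as a yardstick for the same count by distance, starting from the members bright in untreated A. All 29 probes of the centre step were bright on every array, which their place at the signal peak had fixed. In steps 1 and 2, of 109 members bright in untreated A, 103 were bright in untreated B, 105 in α-amanitin B, 97 in DRB and 91 in α-amanitin A. In steps 3 to 5, of 87 such members, 63 (72.4%) were bright in untreated B, 66 (75.9%) in α-amanitin B, 57 (65.5%) in DRB and 33 (37.9%) in α-amanitin A. In steps 6 to 8, of 59 such members, the numbers were 45 (76.3%), 40 (67.8%), 32 (54.2%) and 24 (40.7%). Beyond step 2, α-amanitin B thus lay above untreated B in one zone and below it in the other, and DRB and α-amanitin A lay below it in both. On the rest of chromosome 7, 2604 probes were bright in untreated A, of which 41.4% were bright in untreated B, 56.0% in α-amanitin B, 49.3% in DRB and 25.8% in α-amanitin A. These differences were not tested.

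The order of the members by signal was shared between all pairs of arrays. Spearman's correlation over the members was 0.79 between the untreated arrays. α-amanitin B had 0.83 and 0.74 with the untreated arrays, and α-amanitin A had 0.58 and 0.67. The α-amanitin pair had 0.63. DRB had 0.74 and 0.71 with the untreated arrays and 0.66 and 0.75 with the α-amanitin arrays.

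The lowest 4 of the 10 values were thus the pairs with α-amanitin A, and the α-amanitin arrays were less alike than α-amanitin B and either untreated array. Among the 340 members from step 3 outwards, where the plateau does not contribute, the range was 0.27 (untreated A with α-amanitin A) to 0.70 (untreated A with α-amanitin B), and the untreated pair had 0.60. Over all chromosome 7 probes the order was another, with the lowest value between untreated B and α-amanitin B (0.53), and with 0.66 and 0.60 between α-amanitin A and the untreated arrays beside 0.70 for the untreated pair. All 10 values share arrays and probes, are across members, and carry no p-value.

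For the comparison of treatments, signals were quantile normalized over all probes of the 5 arrays and averaged in tiles of 29 probes, with 15 complete tiles among the members. For α-amanitin against untreated, limma called 0 of the 15 tiles at an adjusted p below 0.05, against 0 of 13261 tiles (0%) on the 7 mouse chromosomes of the array. At an unadjusted p below 0.05 it had 2 of 15, against 3.43% of all tiles. The log2 tile signal was lower in α-amanitin in 14 of the 15 tiles, with a median difference of -0.29, beside 0.01 over all tiles. These differences did not pass the test.

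The sign of that median rested on 1 array. Without α-amanitin A, 7 of the 15 tiles were lower and the median difference was 0.017. Without α-amanitin B it was -0.66, with 14 tiles lower, and without untreated A or B it was -0.30 and -0.29. Over single members, the mean log2 signal was 13.16 and 13.38 in untreated cells and 12.04 and 13.27 with α-amanitin. The difference between conditions was -0.62, of which the A arrays (Cy3) gave -1.12 and the B arrays (Cy5) -0.12. The α-amanitin arrays differed from each other by 1.22, more than the conditions did, and the untreated arrays by 0.22. The part of the dye or of the array in this was not tested.

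The 3 tiles with the smallest p-values in this comparison were the one next to the centre on the lower-rank side, tile 4 and tile 6 of the higher-rank side. In the first, the log2 tile signal was 15.74 and 15.72 in the untreated arrays and 15.56 and 15.60 in the α-amanitin arrays, a difference of -0.15 ± 0.024 (SE, limma, adjusted p = 0.88). After normalization the groups did not overlap but were within 0.18 of each other, close to the ceiling. In deposited signal they did overlap, with means of 50058 and 53090 in untreated cells and 52221 and 48534 with α-amanitin. With chromosome 7 normalized alone the difference was -0.15 ± 0.13, so the small SE depends on the processing. In tile 4, the values were 14.34 and 14.01 in untreated and 13.05 and 13.61 in α-amanitin, a difference of -0.84 ± 0.22 (limma, adjusted p = 0.88). In tile 6 α-amanitin was higher, with 13.61 and 13.30 against 13.01 and 13.10, a difference of 0.40 ± 0.19 (limma, adjusted p = 0.88). By the median deposited signal of that tile α-amanitin A was lower, with 1177 against 3678 and 3857 in untreated cells. α-amanitin B was higher by this measure too, with 5933. The centre tile differed by -0.03 ± 0.019, and by -0.12 ± 0.068 without the probes at the ceiling, so the size there is not well measured.

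**Figure D4:**
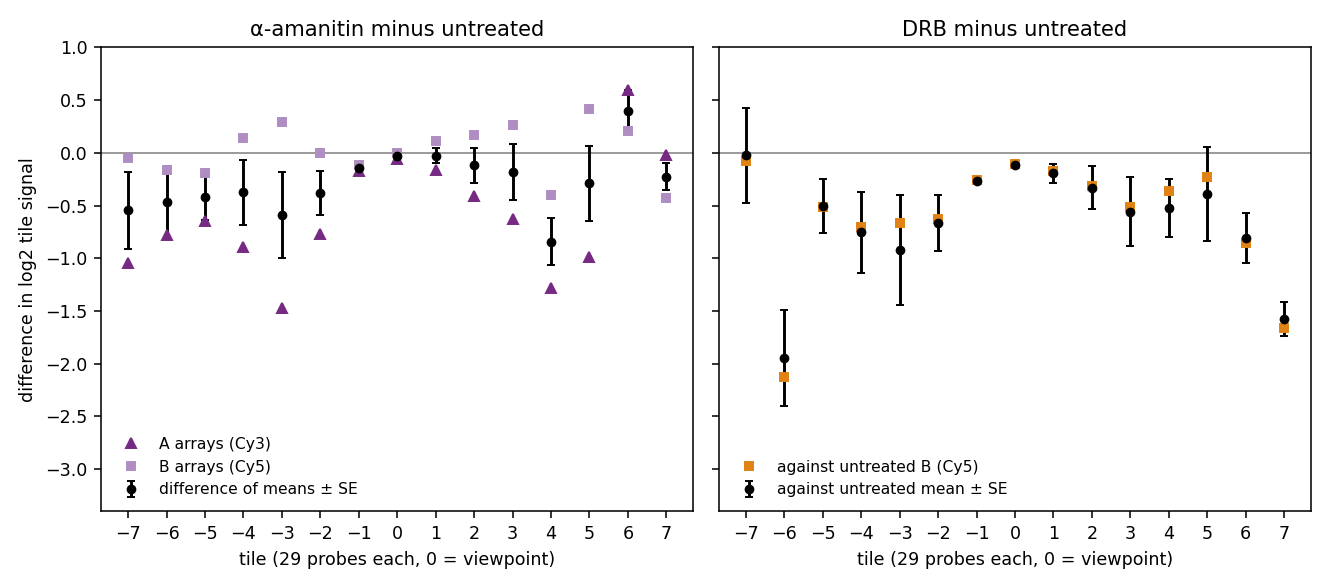
Difference in log2 tile signal (vertical axis, quantile normalized, 29 probes per tile) against the tile from the viewpoint (horizontal axis), for α-amanitin minus untreated (left) and DRB minus untreated (right). Black points with bars are limma differences ± SE, coloured points are differences within 1 dye. On the left the A arrays (triangles) lie below 0 in 14 of the 15 tiles and the B arrays (squares) scatter around it. On the right the points are at or below 0 in all tiles. They are lowest in tile -6, with -1.95 for the black point and -2.12 for the coloured point (DRB minus untreated B).

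For single probes, limma called 0 of the members for α-amanitin, as for all 384666 mouse probes (0%). At an unadjusted p below 0.05 it had 51 members, of which 10 were higher, against 7.86% of all probes. Both α-amanitin arrays were below both untreated arrays for 111 members (22.9%), against 20% of all probes, and above both for 51 (10.5%), against 22.5%. The downward share was near its background.

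The 5 members with the smallest p-values lay between 84 and 220 probes from the viewpoint, all outside the plateau. The brightest of them was 112 probes above it, about 232 kb away (identifier MMUS3C0000056214). Its signal was 59917 and 48455 in the untreated arrays, 1288 and 659 in the α-amanitin arrays and 1014 in DRB, a log2 difference for α-amanitin of -5.70 ± 1.02 (limma, adjusted p = 0.62). It was near the top of the scale in untreated cells and near the chromosome median on all 3 treated arrays.

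The opposite was seen 176 probes above the viewpoint (MMUS3C0000056296). Its signal was 365 and 355 in untreated cells, 20591 and 11595 with α-amanitin and 5132 with DRB (α-amanitin, limma, adjusted p = 0.62). The untreated values were below the chromosome median, so the size of the difference is a lower limit and no fold is given. The remaining 3 members had untreated signals above the chromosome median but below the level called bright, and at most 594 on every treated array. They had 4368 and 4181 in untreated cells at 84 probes above, 4856 and 6016 at 144 below, and 3859 and 2742 at 220 below, against 333 to 594 with α-amanitin and 259 to 532 with DRB. None of the 5 passed the adjusted threshold, and the α-amanitin and DRB differences share the untreated arrays.

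For DRB against untreated, limma was fitted to all 5 arrays, with the single DRB array assumed to vary like the arrays of the other groups, so that every SE and p-value for DRB comes from the spread of the untreated and α-amanitin arrays. It called 0 of the 15 tiles and 0 of all 13261 (0%) at an adjusted p below 0.05. At an unadjusted p below 0.05 it had 5 of 15, against 6.24% of all tiles. All 15 tiles were lower in DRB, with a median log2 difference of -0.53, beside 0.01 over all tiles. With median centring in place of quantile normalization the median was -0.17, beside 0.32 over all tiles, so the members' median was below that of all tiles under both scalings, and 14 of the 15 were below 0 with median centring.

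The 3 tiles with the smallest p-values for DRB were the centre tile, its lower-rank neighbour and tile 7 of the higher-rank side. In the neighbour, log2 tile signal was 15.46 in DRB against 15.74 and 15.72 in untreated cells, a difference of -0.26 ± 0.026 (limma, adjusted p = 0.37). In the centre tile it was 15.82 against 15.95 and 15.92, a difference of -0.12 ± 0.022 (limma, adjusted p = 0.38). Without the probes at the ceiling these differences were -0.42 ± 0.071 and -0.20 ± 0.086. With median centring they were -0.11 and -0.05, and with chromosome 7 normalized alone -0.13 and -0.05. In deposited signal DRB lay between the untreated arrays, with 50262 against 50058 and 53090 in the neighbour and 61945 against 60097 and 61947 in the centre. The size of these 2 differences thus depends on the normalization. Tile 7 lies in the rise at the outer edge. It had 12.62 in DRB, 14.11 and 14.27 in untreated cells and 14.10 and 13.84 with α-amanitin, a DRB difference of -1.58 ± 0.16 (limma, adjusted p = 0.37). DRB was the lowest array in tile 7 by more than 1 on the log2 scale. The lowest value of all was tile 6 of the lower-rank side, with 11.58 in DRB against 13.35 and 13.70, a difference of -1.95 ± 0.45 (limma, adjusted p = 0.44).

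Over single members, DRB was over 2-fold below both untreated arrays for 112 (23.1%), against 1.02% of all probes, and over 2-fold above both for 14 (2.89%), against 3.15%. The same count was 162 members in α-amanitin A (2.09% of all probes) and 56 in α-amanitin B (3.89%). A dim probe cannot fall by this much, and the members were chosen for high signal, so the same share was taken among bright probes only. Among probes bright in both untreated arrays, DRB was over 2-fold below both for 69 of the 240 members (28.8%) and for 414 of the 1079 on the rest of chromosome 7 (38.4%). The corresponding shares were 39.2% and 57.9% for α-amanitin A and 14.2% and 32.3% for α-amanitin B. These probes were picked for high signal in the untreated arrays that the falls were measured against, so the choice itself favoured falls. With DRB, 1 of the 240 members was over 2-fold above both. The reverse count, from probes bright in treated cells, was not made, and whether the falls exceed what the choice gives was not tested.

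The 5 members with the largest DRB differences were 68 to 145 probes from the viewpoint, on the flanks of the plateau and just beyond. The largest was 115 probes below it (MMUS3C0000055874), with 43676 and 28477 in untreated cells, 678 and 63384 in α-amanitin A and B and 266 in DRB. The DRB value was below the chromosome median of that array, so no fold is given. The 4 others, at 145 and 96 probes below and 68 and 98 above, had between 17840 and 50432 in untreated cells and at most 456 in DRB. In α-amanitin A these 4 were also low, with 524 to 700, and in α-amanitin B they were 7439 to 41904. Low values in DRB were largely set by the choice of these 5 members. All 5 were also dark in α-amanitin A and at 7439 or above in α-amanitin B. DRB and α-amanitin A carry different dyes, and the part of the dye in these values was not tested.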

How the data were processed

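The authors deposited raw signal intensity per probe for one channel of each of 5 arrays, read with NimbleScan 2.3.19, without normalization. The arrays hold 60-mer probes within 100 bp of HindIII sites, and the sample in the other dye was not analysed here. Arrays have no read depth, and their number limits precision. The members, 485 probes with 242 on each side of the centre, and the lists were chosen with earlier results of these data known.

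Signals were quantile normalized over all probes (limma 3.58.1, R 4.3.3). Tile signal is log2 of the mean of 29 probes. lmFit and eBayes (trend) were applied to 13261 tiles and 384666 probes with Benjamini-Hochberg adjustment, and were tested on simulated data. Levels, running means, bright calls and step values used the deposited signal, and slopes and sides the normalized log2 signal (Python 3.11.15, numpy 2.4.6, pandas 2.3.3, scipy 1.17.1, matplotlib 3.10.9). Named probes are the centre with 5 on each side, the 5 brightest untreated outside the centre tile, the 5 with the smallest p, the 5 with the largest DRB difference and the 3 tiles with the smallest p per test. Alternatives varied normalization, background correction, averaging, tile width, filters, the bright level, the block and arrays left out.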

Additional observations from a re-analysis of the deposited data

How the results depend on the processing

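Of the members, 0 tiles and 0 probes were called in 33 of 33 alternative fits of limma. Over all 13261 tiles 1 was called for α-amanitin with log2 signals averaged, against 0 in the reported fit. The median log2 differences between conditions moved. For tiles of α-amanitin it was -0.29, and it was -0.56 with median centring (-0.30 over all tiles) and -0.61 with log2 signals averaged. Leaving out single arrays gave -0.66 to 0.017, the latter without α-amanitin A. For probes it was -0.22, -0.49 with median centring and -0.53 to 0.039 without single arrays, the latter again without α-amanitin A. For tiles of DRB it was -0.53, -0.17 with median centring (0.32 over all tiles), -0.19 with chromosome 7 normalized alone (0.14 over all tiles) and -1.01 with log2 signals averaged. The cause was not tested.

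Bright in both arrays were 24.5% of members in untreated and 18.1% in α-amanitin above the 99th percentile, and 64.9% and 47.6% above the 95th percentile of all 7 chromosomes. The slopes without the centre tile were -1.23 in untreated, -1.30 in α-amanitin and -1.43 in DRB, and over running medians -1.19 in α-amanitin and -1.31 in DRB. The side difference as a median was -1.88 in α-amanitin and -0.35 in DRB, beside -0.29 in untreated. The α-amanitin value is a mean of unlike arrays, with -3.03 in A and -0.73 in B. In the untreated arrays it was -0.50 and -0.09. The size in α-amanitin thus rested mainly on α-amanitin A. The range of rank correlations of 0.58 to 0.83 became 0.73 to 0.93 with running means, 0.42 to 0.64 with Kendall's tau, and had a lowest value of 0.51 without the centre tile.

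Same-lettered arrays deviated with a correlation of -0.26 over 1991 chromosome 7 tiles and were not treated as pairs. The letter also marks the dye. With the letter as a replicate block 0 tiles and 0 probes were called. With the letters crossed, a pairing chosen after seeing the data, 0 were called as well. The DRB fit without probes at the ceiling was also added after seeing the data. Signal at the ceiling limits differences in the plateau, and the tests rest on 2 untreated, 2 α-amanitin and 1 DRB array.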

Other observations

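The 124 probes of the separate mouse β-globin tile, which were not members, had median signals of 49521 and 54141 in untreated cells (A and B), 51381 and 45808 with α-amanitin and 52594 with DRB. The 210 probes for human β-globin on the same arrays had medians between 300 and 460. Whether the separate tile overlaps the centre of the members was not given, since neither set has positions.

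Bright members at the edge of the plateau and beyond it behaved differently from each other. The probe 78 ranks below the viewpoint had 59594 and 64731 in untreated cells, 44356 and 59779 with α-amanitin and 58174 with DRB. The probe 59 ranks above it had 63765 and 65535 in untreated cells, 26753 and 65535 with α-amanitin and 55662 with DRB. By contrast, the probe 174 ranks below had 58881 and 65535 in untreated cells, 1376 and 24575 with α-amanitin and 900 with DRB (α-amanitin, limma, adjusted p = 0.62). It was at the ceiling in untreated B, so no fold is given. The probes at 78 and 174 ranks below were chosen after their values were seen, as those with the highest untreated signal from step 3 outwards beside the one described above. The 4 others of the brightest outside the centre tile, at 19 below and 18, 26 and 34 above the viewpoint, had 57556 or more on all arrays.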
